A study of Bos taurus with 27 samples.

Results

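The comparison set Holstein-Friesian cattle with feeding adult ticks against Holstein-Friesian cattle with feeding larvae of Rhipicephalus microplus, the cattle tick. It rests on 6 of the 27 arrays of the series, 3 titled as adult feeding and 3 as larval feeding, chosen by title alone. Each array measured RNA of 1 superficial cervical lymph node biopsy, and all 28927 features of the array (14495 named genes and 14432 unnamed probes) entered the test. The other arrays were 3 Holstein-Friesian samples taken before tick attachment (baseline), and Brahman and Bonsmara samples at the same stages, with 3 arrays in each of the 9 groups. Holstein-Friesian is a taurine dairy breed, Brahman a zebu breed and Bonsmara a composite breed from South Africa.

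Every array compared 1 sample, labelled with the red dye Cy5, with the same pool of superficial cervical lymph node RNA, labelled with the green dye Cy3. A level below is a log2 ratio, likely sample over pool, and a difference is adult minus larva in log2 units, where 1 unit is a 2-fold difference. The base and direction are not written in the file, and if the direction were the opposite, every higher and lower would change places. Because both channels hold node RNA, a level says how a sample departs from the pool and not how abundant a transcript is, so the tissue label could not be checked against absent or present markers. Replicates are labelled as biological, but not whether an animal was sampled at more than 1 stage. Since 0 arrays came from animals kept free of ticks, time, age and tick stage cannot be told apart. P-values measure the spread between these arrays.

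The superficial cervical node collects lymph from neck and shoulder skin, a site of tick attachment. It receives antigen, tick saliva proteins and migrating cells through the lymph, and it is where B cells form germinal centres and turn into antibody-secreting plasma cells. Tick saliva is known for molecules that bind host chemokines and hold back clotting and inflammation. Larvae and adults of this one-host tick feed on the same animal, and adults take the larger blood meal.

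The array labelled Holstein-Friesian larva replicate 3 went against its breed label. Breed features were the 50 of smallest limma p between Brahman and Holstein-Friesian baseline arrays. Over them that array lay 1.26 log2 units (root mean square) from the Holstein-Friesian baseline mean and 0.504 from the Brahman baseline mean. Larva replicates 1 and 2 lay 0.462 and 0.449 from Holstein-Friesian, and the adult arrays between 0.364 and 0.422. Over all features it correlated with larva replicates 1 and 2 at -0.028 and -0.143, whereas those correlated with each other at 0.393 and pairs of adult arrays at 0.24 to 0.406. The counts, the list medians and the genes that turn on it are therefore given with this array and without it, where the 2-array larva group is compared with the 3 adult arrays. The stage label of adult replicate 2 is also in doubt: its title and sample type say adult, while its free-text description names both larvae and adults. It was kept in the adult group by its title. The adult range above includes its own pairs, so it could not fall outside that range. Its mean correlation with the other adult arrays was 0.268, against 0.351 and 0.323 for adult replicates 1 and 3. Its distance of 0.364 from the Holstein-Friesian baseline mean was taken over breed features and does not bear on stage. Values without adult replicate 2 are given where it decides a count. Correlations between any 2 of the 27 arrays ran from -0.143 to 0.457, array medians from -0.0065 to 0.0062 and standard deviations from 0.202 to 0.52. Signal over background is unknown, and the number of arrays limits the precision.

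**Figure D1:**
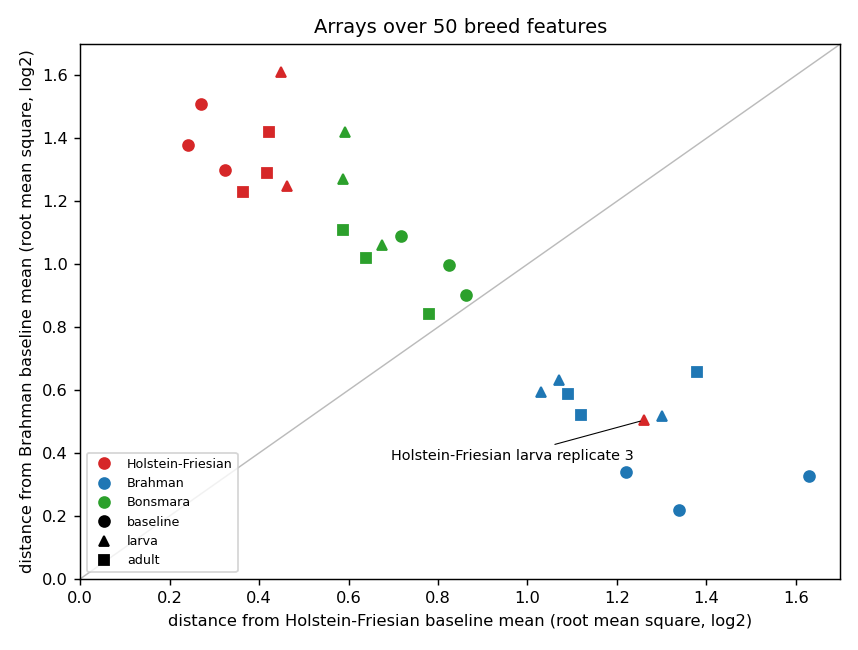
Distance of each of the 27 arrays from the Holstein-Friesian baseline mean (x axis) and from the Brahman baseline mean (y axis). Distances are root mean square log2 differences over 50 breed features, picked between Brahman and Holstein-Friesian baseline arrays. Points are arrays, colours breeds and shapes stages. The array labelled Holstein-Friesian larva replicate 3 sits at 1.26 and 0.504, among the Brahman arrays. The other Holstein-Friesian larva and adult arrays lie at 0.462 or below on the x axis. Baseline arrays of these breeds lie near their own mean by construction, since features and means were taken from them.

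Between adult and larval feeding limma called 1 of 28927 features (0.00346 percent) at an adjusted p under 0.05, 0 higher and 1 lower. The feature that fell is a probe with no gene name, probe 35169. Its levels were 0.77, 0.37 and 0.38 on the larva arrays and -0.35, -0.48 and -0.76 on the adult arrays. All adult arrays lay below all larva arrays, and the difference was -1.04 (SE 0.14, limma adjusted p = 0.00346). At an unadjusted p under 0.05 there were 1377 features. Without larva replicate 3 limma called 3 features (0.0104 percent), 2 higher and 1 lower, with 2108 at an unadjusted p under 0.05. Probe 35169 again fell (-1.11, SE 0.15, adjusted p = 0.0102), and LOC789522, a gene with a provisional symbol, rose by 1.72 (SE 0.26, adjusted p = 0.0183). Its larva levels were -2.36 and -0.99, with -0.24 on the array left out, and its adult levels were 0.22, -0.04 and -0.05. Probe 35150, also unnamed, rose by 0.83 (SE 0.13, adjusted p = 0.0192).

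No named gene with a settled symbol passed the threshold on all 6 arrays or without larva replicate 3, so the genes that follow are given as values. For each, 2 things are stated: whether the adult arrays all lay on one side of the larva arrays, and the limma difference. With 3 arrays against 3 the smallest two-sided exact permutation p is 0.1, so separation of the arrays is a description. Of all features, 4.32 percent had every adult array above every larva array and 4.29 percent had every adult array below. For named genes alone the shares were 4.65 percent above (674 of 14495) and 3.88 percent below (563). Without larva replicate 3, where separation is easier, they were 11.7 percent and 11.3 percent of all features. Every list count below is to be read against these shares, and some lists lie near them. The median difference over all features was -0.00023, and 0.0062 without larva replicate 3.

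The inflammatory cytokine list had more members with separated arrays than the background share. Of 38 measured genes, 12 had all adult arrays above all larva arrays and 1 had them below, and the list median was 0.28 (0.31 without larva replicate 3, 17 above and 1 below). Of these genes 0 passed limma's threshold. The list median per array was -0.10, -0.05 and -0.06 with larvae and 0.32, 0.01 and 0.34 with adults. Adult replicates 1 and 3 thus stood well above the larva arrays, and adult replicate 2 just above them. In bulk samples such as these, fewer cells of a type and less RNA per cell cannot be told apart.

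IL10, a cytokine that restrains macrophages and T cells, stood at -0.23, -0.50 and -0.50 on the larva arrays and at 0.68, 0.54 and 1.55 on the adult arrays. The groups did not overlap, and all baseline arrays (-0.38, 0.04 and -0.11) were also below the adult arrays. The difference was 1.33 (SE 0.28, adjusted p = 0.331), and 1.29 without larva replicate 3. CXCL2, a chemokine that attracts neutrophils, stood at -0.06, -0.19 and -0.06 with larvae and at 0.46, 0.20 and 0.77 with adults (difference 0.58, SE 0.12, adjusted p = 0.331). GRO1, a neutrophil chemokine of the same family, had larva levels of 0.11, -0.29 and -0.23 and adult levels of 1.08, 0.47 and 0.98 (difference 0.98, SE 0.22, adjusted p = 0.422). Both chemokines were above larva on every adult array.

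IL1B, a fever-inducing cytokine made by activated macrophages, stood at -0.18, -0.45 and -0.08 with larvae and at 0.76, 0.02 and 1.50 with adults (difference 1.00, SE 0.24, adjusted p = 0.557). IL6, which drives the acute phase response and plasma cell survival, stood at -0.03, -0.03 and -0.47 with larvae and at 0.99, 0.05 and 1.96 with adults (difference 1.18, SE 0.32, adjusted p = 0.703). In both genes the adult arrays cleared the larva arrays, with adult replicate 2 only marginally so. CCL8, a chemokine for monocytes and other leukocytes, had the widest difference of the list. Its larva levels were -0.71, -1.25 and -0.66 and its adult levels 1.40, 0.45 and 2.01 (difference 2.16, SE 0.56, adjusted p = 0.703). CCL4, a chemokine made by activated macrophages and T cells, stood at -0.33, -0.72 and -0.36 with larvae and at 0.44, 0.10 and 1.14 with adults (difference 1.03, SE 0.25, adjusted p = 0.557). CCL2, a monocyte chemokine, stood at -0.04, -0.66 and -0.61 with larvae and at 1.40, -0.03 and 0.94 with adults (difference 1.21, SE 0.39, adjusted p = 0.854). In each of these 3 chemokines no adult array lay inside the larva range, and adult replicate 2 was the lowest of the adult arrays. TNF, a cytokine at the head of many inflammatory responses, differed by 0.17 (SE 0.16). The 1 member with arrays below larva was CSF3, the granulocyte growth factor (difference -1.02), where adult replicate 1 alone stood at -2.67 and the other adult arrays at -0.06 and -0.09.

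**Figure D2:**
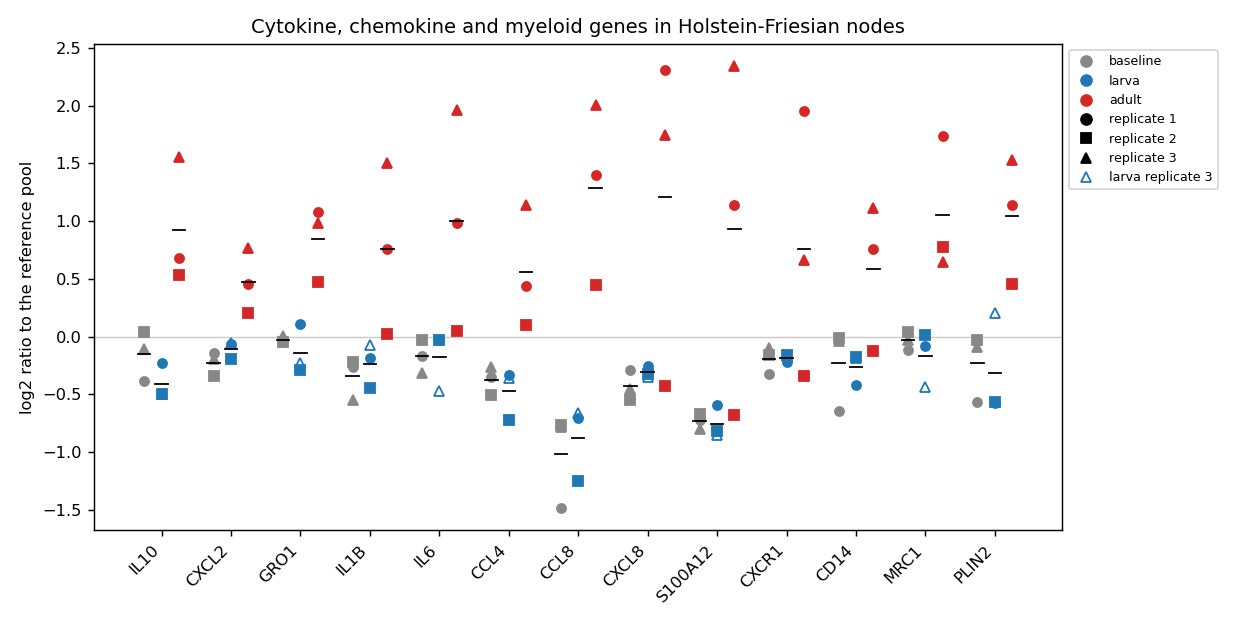
Levels of 13 cytokine, chemokine and myeloid genes (log2 ratio to the reference pool, y axis) on the 9 Holstein-Friesian arrays. Points are arrays, black bars are means over the 3 arrays of a stage, and the open triangle is larva replicate 3. In IL10 through CCL8 every adult array lies above every larva array, and in CXCL8, S100A12 and CXCR1 adult replicate 2 lies with the larva arrays.

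Several myeloid genes were high on 2 of the adult arrays and at the larva level on the other, adult replicate 2, the array whose description names both stages. CXCL8, the main neutrophil chemokine, stood at -0.25, -0.32 and -0.35 with larvae and at 2.31, -0.43 and 1.75 with adults. S100A12, a calcium-binding protein of neutrophils and monocytes, stood at -0.59, -0.81 and -0.85 with larvae and at 1.14, -0.68 and 2.34 with adults. CXCR1, a receptor for CXCL8, had larva levels of -0.22, -0.16 and -0.17 and adult levels of 1.95, -0.34 and 0.66. In these 3 genes adult replicate 2 did not stand above the larva arrays, and the groups overlapped. The differences on all arrays were 1.51 (SE 0.41, adjusted p = 0.703) for CXCL8, 1.69 (SE 0.46, adjusted p = 0.703) for S100A12 and 0.94 (SE 0.31, adjusted p = 0.86) for CXCR1. IL1RN, the antagonist of the IL-1 receptor, had larva levels of -0.41, -0.33 and -0.37 and adult levels of 1.79, -0.84 and 1.45, the adult replicate 2 value being the lowest of the 6.

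The count of 1 called feature changed when adult replicate 2 was left out. These data do not settle whether its stage label is right. In other genes, such as IgCgamma and SEC23A, it stood with the other adult arrays. Without adult replicate 2 the fit called 42 features. Of these 39 were higher and 3 lower with adults, and 36 were named genes. CXCL8 then differed by 2.33 (SE 0.25, limma adjusted p = 1.46e-04) and IL1RN by 1.99 (SE 0.22, adjusted p = 1.91e-04). In both genes adult replicate 2 was the adult array that departed from the others, and leaving it out narrowed the spread. The p-values therefore describe that fit alone and add no support for a difference between stages. Also past the threshold in that fit were S100A12, CXCR1, IL1B, IL6, IL10, CXCL2, GRO1, PLAUR (the urokinase receptor), CD14 and FCGR2A (a receptor for immunoglobulin G). SDS, serine dehydratase, had larva levels of -1.03, -1.03 and -0.81 and adult levels of 2.38, -1.80 and 2.45. ASRGL1, an asparaginase, had larva levels of -0.53, -0.82 and -1.04 and adult levels of 1.89, -0.92 and 3.01. PF4, a chemokine stored in platelets, had larva levels of -0.65, -0.73 and -1.02 and adult levels of 3.59, -0.71 and 1.24. In all 3 genes, adult replicate 2 was within or below the larva range while the other adult arrays were the highest of the 6. SLC40A1, the iron exporter ferroportin, went the other way, with larva levels of -0.29, -0.34 and 0.54 and adult levels of -1.10, 0.78 and -2.10. Its difference was -1.57 (SE 0.32, adjusted p = 0.0473) without adult replicate 2. With the other arrays left out in turn the count lay between 0 and 3.

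In the neutrophil marker list, which holds S100A12 and CXCR1, 2 of 22 measured members had adult arrays above larva and 1 had them below. The median difference was 0.04, 0.11 without larva replicate 3 (2 above and 2 below), and 0.03 to 0.09 without any other 1 array. The list median per array lay between -0.13 and -0.09 with larvae and between -0.02 and 0.00 with adults.

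The macrophage list had a median of 0.16 without larva replicate 3, with 9 members above and 2 below, and a median of 0.14 without adult replicate 2 or larva replicate 1. On all arrays macrophage genes had 7 of 32 members with adult arrays above larva and 1 below, with a median of 0.23, and 0 passed the threshold. Of the 32 differences 19 were positive and 13 negative, down to -0.94, and the genes named next are all on the positive side. The list median per array was -0.14, -0.06 and -0.07 with larvae and 0.14, 0.19 and -0.09 with adults, so the groups overlapped. MRC1, the mannose receptor of tissue macrophages, stood at -0.08, 0.01 and -0.44 with larvae and at 1.74, 0.77 and 0.64 with adults (difference 1.22, SE 0.38, adjusted p = 0.79). CD163, the haemoglobin scavenger receptor, stood at -0.02, -0.39 and 0.07 with larvae and at 1.60, 0.59 and 0.47 with adults (difference 1.00, SE 0.37, adjusted p = 0.917). For these scavenger receptors all adult arrays were above all larva arrays, and adult replicate 1 was the highest. CD14, the lipopolysaccharide co-receptor, stood at -0.42, -0.17 and -0.19 with larvae and at 0.76, -0.12 and 1.12 with adults (difference 0.84, SE 0.26, adjusted p = 0.79). The lysosomal proteases CTSB and LGMN differed by 0.76 (SE 0.24) and 0.73 (SE 0.24), with separated arrays in each. F13A1, the clotting factor subunit carried by macrophages and platelets, stood at -0.02, 0.02 and -0.91 with larvae and at 0.58, 0.54 and 1.13 with adults (difference 1.05, SE 0.23, adjusted p = 0.331). Its difference was 0.75 without larva replicate 3, which was the lowest of the larva arrays. PLIN2, a lipid droplet coat protein found in lipid-laden macrophages, stood at -0.58, -0.57 and 0.20 with larvae and at 1.14, 0.45 and 1.53 with adults. The groups did not overlap, and the difference was 1.35 (SE 0.27, adjusted p = 0.314), and 1.61 (SE 0.28, adjusted p = 0.0669) without larva replicate 3.

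In the list of dendritic cell and antigen presentation genes 2 of 19 members had adult arrays above larva and 2 below, with a median of 0.18 (0.15, 4 above and 2 below, without larva replicate 3). There were 13 positive and 6 negative differences. The list median per array overlapped between stages, at -0.06, -0.02 and 0.04 with larvae and 0.05, -0.005 and -0.07 with adults. CD86, which co-stimulates T cells, differed by 0.44 (SE 0.17, adjusted p = 0.983) with separated arrays. SIRPA, a receptor of myeloid cells for CD47, differed by 0.63 (SE 0.25), and its arrays overlapped.

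On all 6 arrays, immediate early and stress genes had the highest share of members with adult arrays above larva among the 28 lists. Of 29 measured genes 10 had all adult arrays above all larva arrays and 0 below, the median difference was 0.31 (0.26 without larva replicate 3, 13 above and 0 below) and 28 differences were positive. Again 0 passed limma's threshold. NR4A1, a nuclear receptor induced by antigen receptor signalling, stood at -0.27, -0.39 and -0.23 with larvae and at 0.07, 0.05 and 0.57 with adults (difference 0.53, SE 0.17, adjusted p = 0.822). IER3, an early response gene that limits apoptosis, stood at -0.08, -0.33 and -0.15 with larvae and at 0.50, -0.07 and 0.75 with adults (difference 0.58, SE 0.17, adjusted p = 0.703). EGR1, a growth-induced transcription factor, stood at -0.29, -0.24 and -0.61 with larvae and at 0.28, 0.05 and 0.14 with adults (difference 0.54, SE 0.31). The arrays were separated in all 3, by a narrow gap for adult replicate 2 in IER3. The archetypal member FOS overlapped, with a difference of 0.23 (SE 0.54). GADD45B, a stress-induced regulator of p38 signalling, was among the 10 genes of smallest p with higher separated arrays and stood at -0.32, -0.04 and -0.23 with larvae and at 0.26, 0.15 and 0.56 with adults (difference 0.52, SE 0.12, adjusted p = 0.428).

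**Figure D3:**
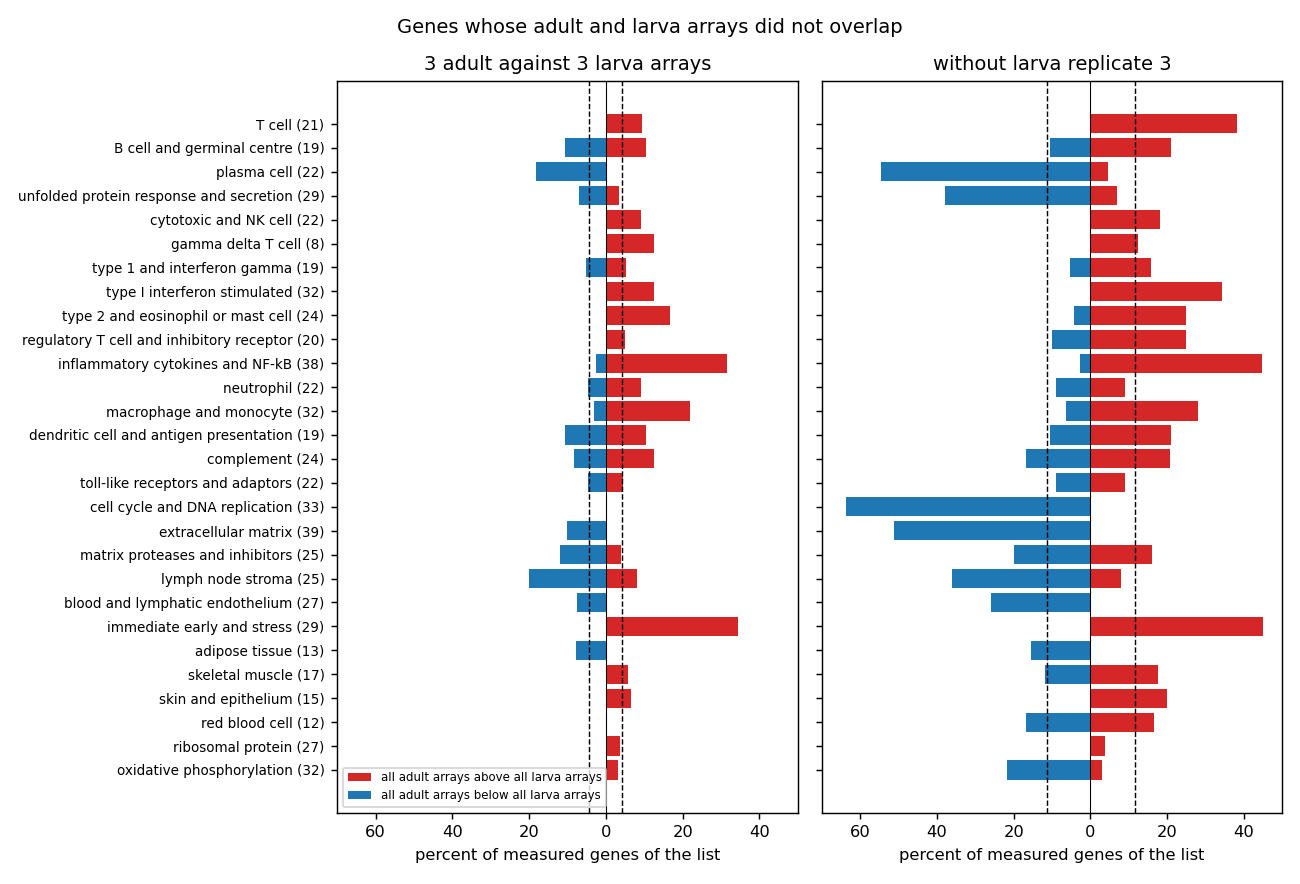
Percent of the measured genes of each list (number in brackets) whose adult arrays all lay above (red, right) or all below (blue, left) the larva arrays, on all 6 arrays (left panel) and without larva replicate 3 (right panel). Dashed lines mark the shares over all features, 4.32 and 4.29 percent on the left and 11.7 and 11.3 percent on the right. Immediate early and inflammatory lists reach furthest to the right in both panels, and cell cycle, plasma cell and matrix lists reach furthest to the left once larva replicate 3 is left out.

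T cell genes had 2 of 21 members above larva and 0 below, with a median of 0.20 (0.24 and 8 above without larva replicate 3). Over all features 4.32 percent were above, and 11.7 percent without that array. LEF1, a transcription factor of naive T cells, stood at -0.08, -0.04 and -0.05 with larvae and at 0.08, 0.75 and 0.52 with adults (difference 0.51, SE 0.16, adjusted p = 0.854). CD3G, a chain of the T cell receptor complex, differed by 0.29 (SE 0.16) with overlapping arrays. The cytotoxic and NK cell list had 2 of 22 above and 0 below, with 4 above and 0 below without larva replicate 3. Its median of 0.19 was 0.31 without that array, 0.36 without adult replicate 3, 0.09 without larva replicate 2 and 0.06 without adult replicate 2. CD244 and TYROBP, an NK cell receptor and a signalling adaptor of NK and myeloid cells, differed by 0.36 (SE 0.26) and 0.28 (SE 0.20). Gamma delta T cell genes, a lineage abundant in cattle, had 1 of 8 above and a median of 0.16 (0.15 without larva replicate 3), and 0.10 without adult replicate 1 or larva replicate 2. That list held CD163L1, the family of the WC1 receptor, at 0.57 (SE 0.26), and GATA3 at 0.30 (SE 0.16).

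In the regulatory T cell and inhibitory receptor list IL10 was the only one of 20 members with adult arrays above larva, 0 were below, and the median was 0.15 (0.15, with 5 above and 2 below, without larva replicate 3). CTLA4, the receptor that competes for CD86, stood at -0.39, -0.24 and -0.13 with larvae and at 0.32, -0.16 and 1.03 with adults (difference 0.65, SE 0.25). The arrays overlapped through adult replicate 2 and larva replicate 3. FOXP3, the regulatory T cell transcription factor, differed by 0.15 (SE 0.21), and ENTPD1, an ectonucleotidase, by -0.45 (SE 0.17), both with overlapping arrays.

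Of type 1 and interferon gamma genes 1 of 19 was above and 1 below, with a median of 0.10 (0.14, 3 above and 1 below, without larva replicate 3). The median was 0.03 without larva replicate 2, 0.05 without adult replicate 2 and 0.20 without adult replicate 3. IFNG stood at -0.33, -0.36 and -0.19 with larvae and at 0.15, 0.04 and -0.07 with adults, a separated difference of 0.34 (SE 0.19). IL12RB1, a subunit of the IL-12 receptor, was the member below larva at -0.21 (SE 0.11). CXCL9 and CXCL10, which IFNG induces, differed by 0.30 (SE 0.47) and -0.16 (SE 0.43), each with a sign that turned when 1 array was left out, and CXCL10 spread from -2.05 to 0.17 over the adult arrays. Type I interferon stimulated genes had 4 of 32 above and 0 below. Without larva replicate 3 there were 11 above, where the share over all features was 11.7 percent. The median was 0.11, and 0.24 without that array. It was 0.06 without adult replicate 2, 0.16 without adult replicate 1 and 0.21 without adult replicate 3. ISG15, a ubiquitin-like antiviral protein, stood at -1.13, -1.61 and -1.35 with larvae and at -0.67, -0.18 and -0.85 with adults (difference 0.80, SE 0.52). IFIT2 and PARP9 also had separated arrays, with differences of 0.73 (SE 0.33) and 0.31 (SE 0.16).

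Type 2 genes with eosinophil and mast cell genes had 4 of 24 members above larva and 0 below, with a median of 0.10 (0.14, 6 above and 1 below, without larva replicate 3), and 0.07 to 0.16 without any other 1 array. CCL26, an eosinophil chemokine, stood at -0.42, -0.30 and -0.34 with larvae and at 1.46, -0.05 and 1.08 with adults (difference 1.18, SE 0.43, adjusted p = 0.917). CCL24, another eosinophil chemokine, had adult levels of 0.85, -0.01 and 1.37 (difference 0.79, SE 0.26, adjusted p = 0.854). Only CCL26 had separated arrays of these 2, since larva replicate 2 of CCL24 stood at 0.09. The cytokines IL4, IL5 and IL13 differed by 0.21 (SE 0.15), 0.08 (SE 0.39) and 0.18 (SE 0.18), the last 2 with a sign that turned when 1 array was left out.

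**Figure D4:**
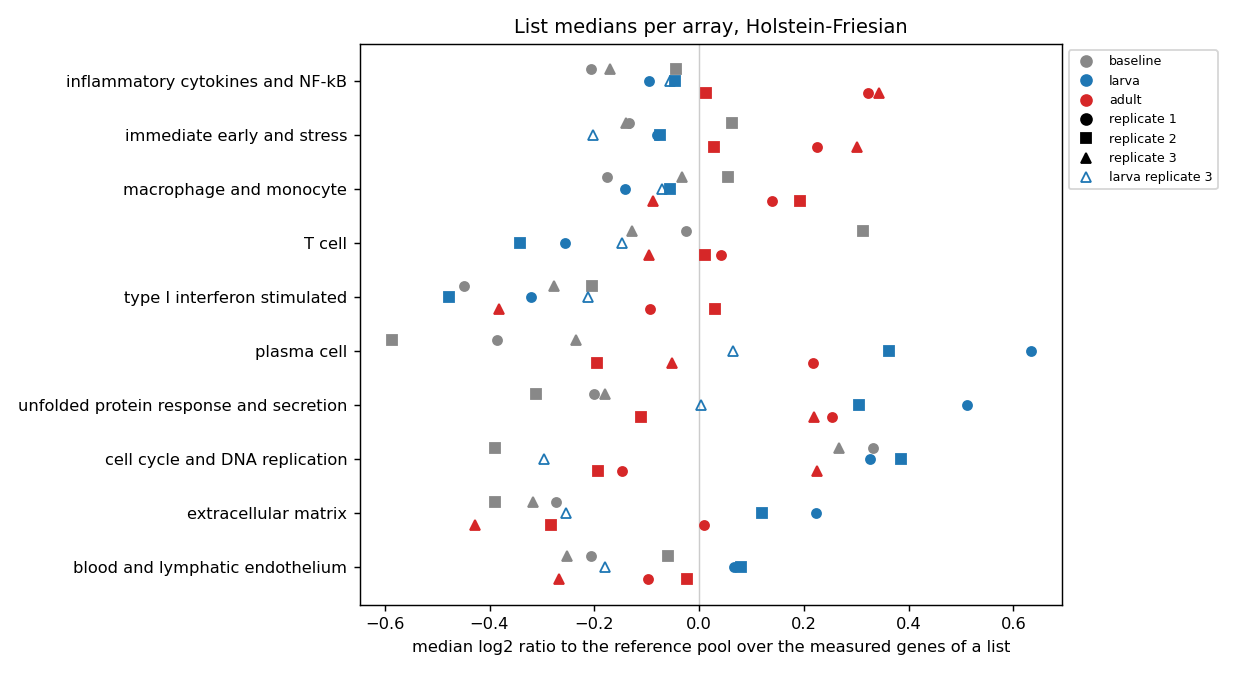
Median level over the measured genes of 10 lists (log2 ratio to the reference pool, x axis) on each Holstein-Friesian array. Points are arrays and the open triangle is larva replicate 3. Adult arrays lie above larva arrays in the inflammatory and immediate early lists, and larva replicates 1 and 2 lie highest in the plasma cell, secretion and matrix lists, where larva replicate 3 lies apart from them.

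Antibody and plasma cell genes had mostly negative differences. IgCgamma, the gamma heavy chain constant region that makes an antibody immunoglobulin G, stood at 1.33, 1.06 and -0.42 on the larva arrays and at -1.32, -1.32 and -2.86 on the adult arrays. The groups did not overlap, and the adult arrays lay in or near the baseline range (-1.95, -2.31 and -0.21). The difference was -2.49 (SE 0.70, adjusted p = 0.703), and -3.03 (SE 0.76, adjusted p = 0.263) without larva replicate 3. Of 22 measured plasma cell genes 20 had a negative difference, 4 had adult arrays below larva, 0 had them above and 0 passed the threshold. The median was -0.32, and -0.48 without larva replicate 3, where 12 were below (11.3 percent over all features) and 1 above. Without any other 1 array the median ran from -0.48 (without adult replicate 1) to -0.23.

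JCHAIN, which joins secreted immunoglobulin polymers, stood at 2.42, 1.01 and -0.58 with larvae and at -0.46, 0.19 and -0.87 with adults. MZB1, a chaperone of antibody assembly, stood at 1.07, 0.81 and -0.10 with larvae and at 0.11, -0.83 and -0.46 with adults. Larva replicate 3 lay among the adult arrays in both. The differences were -1.33 (SE 0.66) for JCHAIN and -0.99 (SE 0.62) for MZB1, and -2.09 and -1.33 without that array. JCHAIN was at -0.60 without larva replicate 1 and TXNDC5, described next, at -0.70. Separated on all 6 arrays were IRF4, a transcription factor of plasma cells (-0.85, SE 0.32, adjusted p = 0.93), DERL3, of endoplasmic reticulum protein disposal (-0.93, SE 0.33, adjusted p = 0.914), and TXNDC5, a disulphide isomerase (-1.05, SE 0.49). XBP1, the secretory regulator of plasma cells, differed by -0.09 (SE 0.30), with overlapping arrays and a sign that turned without adult replicate 2 or larva replicate 1.

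The unfolded protein response and secretion list had 2 of 29 members below larva and 1 above, with a median of -0.11 (-0.18, with 11 below and 2 above, without larva replicate 3). The median was -0.01 without adult replicate 2 and -0.03 without larva replicate 1. ERN1, the sensor IRE1, differed by -0.55 (SE 0.27) with separated arrays. The chaperone HSPA5 differed by 0.04 (SE 0.24; -0.18 without larva replicate 3), and PDIA3, a disulphide isomerase, by 0.38 (SE 0.17) with larva replicate 3 and 0.17 (SE 0.16) without it.

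IGHE, the epsilon heavy chain constant region that makes an antibody immunoglobulin E, depended on each larva array. It stood at -4.86 and -3.44 on larva replicates 1 and 2 and at 2.44 on larva replicate 3, against -0.12, 0.02 and 0.22 on the adult arrays and -2.33, -2.87 and -3.64 at baseline. The adult arrays were thus tightly grouped and above all baseline arrays, and inside the larva range only because of larva replicate 3. The difference was 2.00 (SE 1.25, adjusted p = 1) on all arrays and 4.19 (SE 0.94, adjusted p = 0.205) without that array. It was 0.54 without larva replicate 1 and 1.26 without larva replicate 2. The same adult minus larva difference was 5.44 in Brahman and 3.61 in Bonsmara.

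B cell and germinal centre genes had 2 of 19 members above larva and 2 below, with a median of -0.05 (0.17, 4 above and 2 below, without larva replicate 3), whose sign also turned without adult replicate 2 (0.02) and which was -0.21 without larva replicate 1. BANK1, a B cell scaffold protein, stood at 0.51, 0.67 and 0.31 with larvae and at -0.07, -0.04 and -0.37 with adults (difference -0.66, SE 0.19, adjusted p = 0.703). CD79A, a signalling chain of the B cell receptor, differed by -0.62 (SE 0.23, adjusted p = 0.917), also with separated arrays. The germinal centre gene RGS13, a regulator of G protein signalling, stood at -1.25, -1.41 and -0.60 with larvae and at 0.02, 0.36 and 0.56 with adults (difference 1.40, SE 0.74). MYBL1, a transcription factor of germinal centre B cells, had larva levels of -0.93, -0.30 and -0.15 and adult levels of 0.37, 0.28 and 0.47 (difference 0.83, SE 0.50). BCL6, the master regulator of the germinal centre, differed by 0.58 (SE 0.26), and adult replicate 2 at -0.08 lay just under the highest larva array at -0.06. Baseline levels of RGS13 ran from -0.40 to 1.88, a range wider than that of the adult arrays.

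**Figure D5:**
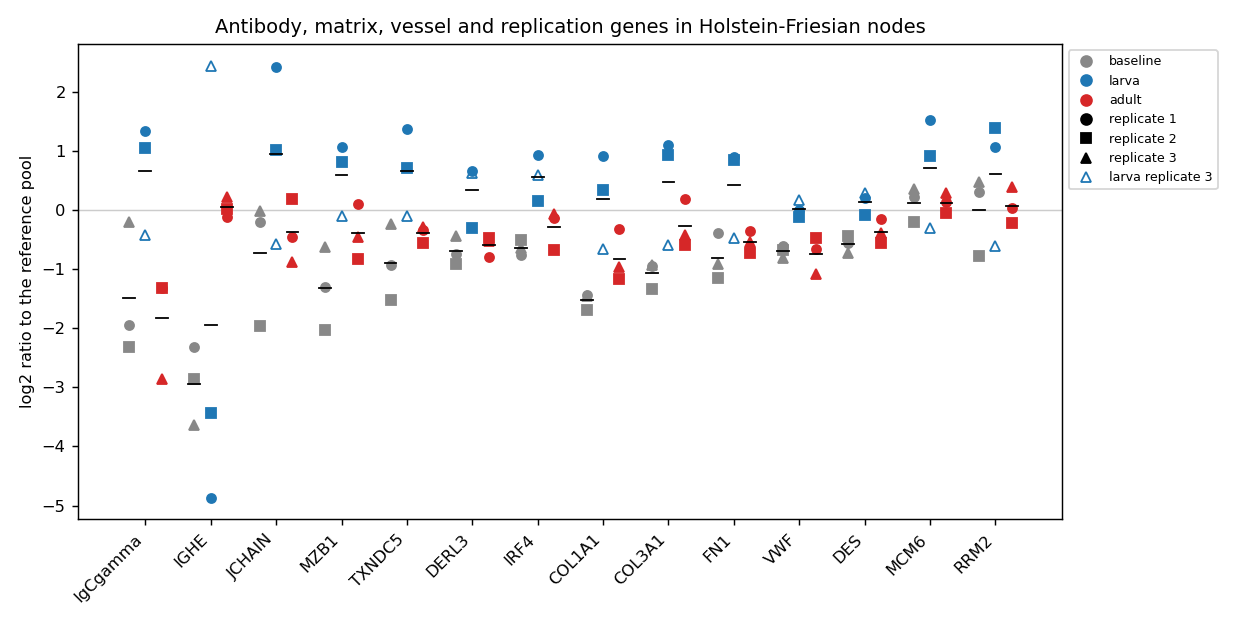
Levels of 14 antibody, matrix, vessel, muscle and replication genes (log2 ratio to the reference pool, y axis) on the 9 Holstein-Friesian arrays. Points are arrays, black bars are means over the 3 arrays of a stage, and the open triangle is larva replicate 3. Larva replicate 3 lies with the adult or baseline arrays in JCHAIN, the collagens, FN1, MCM6 and RRM2, and at 2.44 in IGHE, where the other larva arrays stand at -4.86 and -3.44.

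Extracellular matrix genes had 4 of 39 members with adult arrays below larva and 0 above, and 33 negative differences, with a median of -0.32. Without larva replicate 3 the count below was 20 (11.3 percent over all features), with 0 above, and the median was -0.45. It was -0.20 without adult replicate 3 or larva replicate 1. None of the 39 passed the threshold in either fit. COL1A1, a chain of type I collagen, stood at 0.90, 0.33 and -0.67 with larvae and at -0.33, -1.17 and -0.97 with adults (difference -1.01, SE 0.47), and at -1.44 to -1.69 at baseline. FN1, fibronectin, stood at 0.90, 0.85 and -0.48 with larvae and at -0.36, -0.73 and -0.55 with adults (difference -0.97, SE 0.45). COL3A1 had larva levels of 1.09, 0.93 and -0.59 and adult levels of 0.18, -0.59 and -0.42 (difference -0.76, SE 0.44). In these genes larva replicates 1 and 2 were the highest of all 9 Holstein-Friesian arrays, and larva replicate 3 lay within or near the adult range. Without it the differences were -1.44, -1.42 and -1.29, and without larva replicate 1 those of COL1A1 and COL3A1 were -0.66 and -0.45. LAMC1, a laminin chain, and TNXB, tenascin X, had the smallest p of the list, at -0.57 (SE 0.22) and -0.32 (SE 0.12), both with overlapping arrays.

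Stromal genes of the node had 5 of 25 members below larva and 2 above, with a median of -0.18 (-0.24, 9 below and 2 above, without larva replicate 3). DES, the muscle intermediate filament desmin, stood at 0.20, -0.08 and 0.29 with larvae and at -0.15, -0.56 and -0.39 with adults (difference -0.50, SE 0.14, adjusted p = 0.703). PDGFRB, a receptor of pericytes and fibroblasts, differed by -0.53 (SE 0.18, adjusted p = 0.885), and CCL19, a chemokine of the T cell zone, by -0.23 (SE 0.21), each with separated arrays. RGS5, a pericyte gene outside that list, had separated arrays too, at 0.76, 0.69 and -0.07 with larvae and -0.12, -0.50 and -0.42 with adults (difference -0.81, SE 0.24, adjusted p = 0.75). Vessel genes had 2 of 27 members below larva and 0 above, with a median of -0.15 (-0.31 and 7 below without larva replicate 3). That median was -0.02 without larva replicate 1 and -0.06 without adult replicate 3. VWF, the von Willebrand factor of endothelium and platelets, stood at 0.00, -0.12 and 0.17 with larvae and at -0.66, -0.47 and -1.09 with adults, with baseline arrays at -0.60, -0.68 and -0.80. Its difference was -0.76 (SE 0.23, adjusted p = 0.777), with the larva arrays above both other stages. ROBO4, an endothelial guidance receptor, differed by -0.36 (SE 0.12, adjusted p = 0.9). CD300LG, which high endothelial venules and capillaries carry, stood at 0.27, 0.55 and 0.37 with larvae and at -0.44, -0.34 and -0.24 with adults (difference -0.73, SE 0.17, adjusted p = 0.428).

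Matrix proteases and their inhibitors had 1 of 25 members above larva and 3 below, with a median of 0.04 (-0.01, 4 above and 5 below, without larva replicate 3), and a sign that also turned without adult replicate 1. ADAM19, a membrane protease, was among those below (-0.48, SE 0.14, adjusted p = 0.75). PLAUR stood at -0.04, -0.22 and -0.34 with larvae and at 0.69, -0.19 and 1.34 with adults (difference 0.81, SE 0.22, adjusted p = 0.703). Complement genes had 3 of 24 above and 2 below, with a median of 0.08 (0.02, 5 above and 4 below, without larva replicate 3). The median was -0.09 without adult replicate 1 and 0.0035 without adult replicate 2, so its sign turned on 1 array. C1S and C1R, the proteases that start the classical pathway, were the members below, at -0.69 (SE 0.22, adjusted p = 0.854) and -0.60 (SE 0.21, adjusted p = 0.903), while C5AR1, a receptor for a complement fragment, and CFP, properdin, were above at 0.41 (SE 0.15) and 0.57 (SE 0.24).

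Cell cycle genes depended on larva replicate 3 for whether arrays separated. On all 6 arrays 0 of 33 members were separated in either direction, though 31 differences were negative and the median was -0.21. Without that array 21 of 33 had adult arrays below larva (11.3 percent over all features) and 0 above, and the median was -0.42. The median was -0.07 without larva replicate 2, -0.13 without adult replicate 1, -0.14 without adult replicate 2 or larva replicate 1 and -0.35 without adult replicate 3. MCM6, a subunit of the replicative helicase, stood at 1.52, 0.91 and -0.31 with larvae and at 0.13, -0.06 and 0.29 with adults. RRM2, a subunit of ribonucleotide reductase, stood at 1.07, 1.38 and -0.62 with larvae and at 0.03, -0.23 and 0.39 with adults. Larva replicate 3 was the lowest of the 6 in both. The differences were -0.58 (SE 0.31) for MCM6 and -0.55 (SE 0.37) for RRM2 on all arrays, and -1.09 (SE 0.25, adjusted p = 0.205) and -1.16 without it. MCM6 was at -0.18 without larva replicate 1, and RRM2 at -0.32 and -0.16 without larva replicates 1 and 2. CCNE1, a cyclin of the start of replication, differed by -0.32 (SE 0.17).

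Outside the lists, the genes of smallest p with higher and separated adult arrays included SEC23A, CNDP2, NGEF and SLC2A3. SEC23A, a coat protein of vesicles leaving the endoplasmic reticulum, stood at 0.05, -0.25 and -0.21 with larvae and at 0.47, 0.39 and 0.45 with adults (difference 0.57, SE 0.11, adjusted p = 0.314). CNDP2, a cytosolic dipeptidase, had larva levels of -0.28, -0.22 and -0.36 and adult levels of 0.74, 0.11 and 0.76 (difference 0.82, SE 0.16, adjusted p = 0.314). NGEF, a guanine nucleotide exchange factor, differed by 0.70 (SE 0.14, adjusted p = 0.331), and the glucose transporter SLC2A3 by 0.91 (SE 0.21, adjusted p = 0.428). The 3 adult arrays of SEC23A lay close to one another and above all 3 baseline arrays.

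The genes of smallest p with lower and separated adult arrays were DENND5B, BRMS1L, CD300LG, FHL1, ZC3H12C, PPP2R3A, KLHDC2, GNA15, IgCgamma and AQP3, with differences from -0.41 to -2.49. DENND5B, an exchange factor for Rab proteins, stood at 0.78, 0.64 and 0.38 with larvae and at -0.24, -0.15 and -0.14 with adults (difference -0.78, SE 0.17, adjusted p = 0.331). AQP3, a water and glycerol channel, stood at 1.32, 0.62 and 0.04 with larvae and at -0.58, -0.29 and -0.41 with adults (difference -1.09, SE 0.31, adjusted p = 0.703). FHL1, a LIM domain protein of muscle and stroma, had larva levels of 0.15, 0.15 and 0.17 and adult levels of -0.31, -0.27 and -0.83 (difference -0.62, SE 0.15, adjusted p = 0.511). In these 3 genes the baseline arrays lay below all larva arrays, except baseline replicate 3 for AQP3.

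Without larva replicate 3, the smallest p-values among higher genes with separated arrays were those of PLIN2, GIMAP6, PLEK, IGHE, CXCL2, NT5C2, PGAP6, CNDP2, SEC23A and BOLA-DYB. PLEK, a protein kinase C substrate of platelets and leukocytes, differed by 0.77 (SE 0.17, adjusted p = 0.205), and GIMAP6, a GTPase of lymphocytes, by 0.65 (SE 0.14, adjusted p = 0.205). BOLA-DYB, a class II antigen presentation gene of ruminants, stood at -1.61 and -0.57 on larva replicates 1 and 2, at 0.22 on larva replicate 3 and at -0.22, -0.04 and -0.26 on the adult arrays. Among lower genes they were DENND5B, PDHB, MRPS22, ERGIC2, NUP35, BRMS1L, RGS5, AQP3, MCM6 and SMCHD1. PDHB, a subunit of pyruvate dehydrogenase, and MRPS22, of the mitochondrial ribosome, differed by -0.80 (SE 0.16) and -0.78 (SE 0.16). In both, larva replicate 3 stood below or among the adult arrays, at -0.25 and -0.43.

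Marker lists of neighbouring tissues had medians near 0. They were 0.02 for adipose tissue (0 of 13 above, 1 below), 0.01 for skeletal muscle (1 of 17 above, 0 below), 0.03 for skin and epithelium (1 of 15 above, 0 below) and -0.01 for red blood cells (0 of 12 in either direction). Without larva replicate 3 they were 0.05, 0.00, 0.03 and -0.02. FABP4, a fatty acid binding protein of fat cells, capillaries and macrophages, was the widest departure, at 1.56, 1.11 and -0.32 with larvae and 0.53, -0.24 and -0.76 with adults (difference -0.94, SE 0.54). CDH1, the epithelial cadherin, was the skin list member with separated arrays, at -0.01, -0.17 and 0.06 with larvae and 0.42, 0.33 and 0.74 with adults (difference 0.53, SE 0.13, adjusted p = 0.557). Ribosomal protein genes had a median of 0.06 with 1 of 27 above and 0 below, and -0.03 without larva replicate 3. Oxidative phosphorylation genes had a median of 0.02 with 1 of 32 above and 0 below. Without larva replicate 3 that median was -0.10, with 1 above and 7 below. Toll-like receptors and adaptors had a median of 0.00 with 1 of 22 above and 1 below (0.04 without larva replicate 3), and TLR4, the lipopolysaccharide receptor, differed by 0.56 (SE 0.20, adjusted p = 0.903) with overlapping arrays.

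The adult minus larva difference was then set against the same difference in the other breeds. Limma called 0 features for Holstein-Friesian against Brahman, with 1660 at an unadjusted p under 0.05 and a smallest adjusted p of 0.379, and 0 against Bonsmara, with 1829 and a smallest adjusted p of 0.0719. Without larva replicate 3 both counts were also 0, with 2060 and 2399 at an unadjusted p under 0.05. Limma's smallest adjusted p was then 0.300 against Brahman and 0.212 against Bonsmara. No gene was therefore shown to respond differently between breeds, and a median SE of 0.23 for these differences of differences limits what could be seen.

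Against Brahman, the smallest adjusted p-values among named genes with a settled symbol were those of KLHDC2, MARCKSL1, TMSB4, FHL1, CFL1 and SEC23A. KLHDC2, a ubiquitin ligase receptor, differed between adult and larva by -0.45 in Holstein-Friesian and by 0.48 in Brahman (difference -0.93, SE 0.18, adjusted p = 0.421). The actin-binding protein TMSB4, thymosin beta 4, differed by -0.28 and 0.82 (difference -1.10, SE 0.24, adjusted p = 0.546), and MARCKSL1, another actin regulator, by 0.56 and -0.47 (difference 1.02, SE 0.21, adjusted p = 0.546). Against Bonsmara they were PDIA3, POLI, SNX13, SEC23A, STX17 and TSPO. PDIA3 differed by 0.38 in Holstein-Friesian and by -1.12 in Bonsmara (difference 1.50, SE 0.24, adjusted p = 0.0719). Without larva replicate 3 its Holstein-Friesian difference was 0.17, and no limma adjusted p against Bonsmara was under 0.212. The gene values of this paragraph otherwise include that array. POLI, a DNA polymerase of damage bypass, differed by -0.27 and 0.73 (difference -1.01, SE 0.19, adjusted p = 0.48).

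Side by side, the inflammatory list had medians of 0.28 in Holstein-Friesian, 0.11 in Brahman and 0.07 in Bonsmara, and the immediate early list 0.31, 0.01 and -0.09. CXCL8 differed by 1.51, -0.14 and 0.13 in the 3 breeds. The difference between Holstein-Friesian and Brahman was 1.65 (SE 0.58, adjusted p = 0.853) and that between Holstein-Friesian and Bonsmara 1.39 (SE 0.58, adjusted p = 0.733). IL6 differed by 1.18, 0.25 and -0.26, and IL10 by 1.33, 0.56 and 0.57. The macrophage list had medians of 0.23, 0.63 and 0.51, and MRC1 differed by 1.22, 1.23 and 1.98. CCL26 differed by 1.18, 1.36 and 0.98. The cell cycle list had medians of -0.21, -0.71 and -0.22, the plasma cell list -0.32, -0.12 and -0.29, and the cytotoxic list 0.19, 0.43 and 0.67. Matrix genes had medians of -0.32, 0.21 and -0.41, and VWF differed by -0.76, 0.27 and -0.79. The sign of the matrix and VWF values thus matched between Holstein-Friesian and Bonsmara and was opposite in Brahman, and for VWF the difference from Brahman was -1.03 (SE 0.32, adjusted p = 0.853). These Holstein-Friesian values include larva replicate 3. Without it the medians were 0.31 for the inflammatory, 0.26 for the immediate early, 0.16 for the macrophage, -0.42 for the cell cycle, -0.48 for the plasma cell, 0.31 for the cytotoxic and -0.45 for the matrix list. The list medians were not tested between breeds.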

How the data were processed

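RNA from lymph node biopsies was measured on 2-colour arrays against a common reference pool. The authors deposited normalized log ratios, taken here as log2 since the base is not written in the file, of 45220 probes, 27 arrays and 0 missing values. The submitters' processing notes name limma without a version. How background was corrected and how arrays were normalized is not given in the sources used here. Probes were named through the platform's table (30788 with 1 symbol, 14432 with none), with symbols updated through RefSeq's ARS-UCD2.0 gene table, used for names only. Probes of 1 gene were averaged.

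One mean per group was fitted to all 27 arrays with limma 3.58.1 in R 4.3.3 (18 residual degrees of freedom, 17 without larva replicate 3), with two-sided moderated tests and Benjamini-Hochberg adjustment over 28927 features. The code was tested on simulated data. The SE is pooled over groups, so it does not follow the spread of a single gene within 1 group. Named genes were the 10 of largest change past the threshold in each direction, filled to 10 by smallest p with separated arrays, in each fit. For each of 28 lists they were up to 4 called members or the 2 of smallest p, plus up to 4 of textbook role. For each breed difference they were the 6 of smallest adjusted p among named genes with a settled symbol. Genes called without adult replicate 2, and a few others that the text singles out, were chosen after their values were seen, and so were their refits under other settings. The comparison and the lists were chosen with earlier results of these data known. Same-numbered adult and larva arrays correlated, in their deviations from group means, at 0.0423, -0.138 and -0.0147. The larva mean includes larva replicate 3, so these values cannot show whether animals were sampled at both stages. The labels do not say so either, and the main fit did not pair arrays by number.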

Additional observations from a re-analysis of the deposited data

How the results depend on the processing

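The count of 1 called feature stayed at 1 with arrays scaled to one spread, quantile normalization, every probe on its own, array weights, the replicate block (replicate number as a block) and a robust trended prior. It was 0 with named genes only, with only the 2 groups and with only Holstein-Friesian arrays in the fit. Leaving out 1 array at a time gave 0 (without adult replicate 3 or larva replicate 1) to 42 (without adult replicate 2). The count of 3 without larva replicate 3 was 1 with scaling, 1 with quantile normalization, 1 with named genes only, 1 with only Holstein-Friesian arrays, 5 with every probe on its own, 0 with only the 2 groups and 0 with the replicate block. Leaving out a further array gave 0 (without adult replicate 3) to 178 (without larva replicate 2). It was 163 without larva replicate 1 and 29 without adult replicate 2. The lone larva array was then assumed to vary like the other groups. The cause was not tested. The difference from Brahman gave 2 features with array weights, and that from Bonsmara gave 1 with scaling, 1 with quantile normalization and 1 with named genes only. The 93 genes of the rule by size or smallest p kept their sign in 1023 of 1023 refits over 11 settings. Much of that outcome was fixed by the choice of genes, since leaving out 1 array cannot change the sign where arrays did not overlap. The replicate block and the fit of only the 2 groups also return the same difference as the main fit. Of the 93 genes, 14 passed the threshold in 1 of the settings, each without adult replicate 2. The other 42 genes in the text, refitted after the data were seen, kept their sign in 447 of 462 refits, and 6 (CXCL9, CXCL10, HSPA5, IL5, IL13 and XBP1) changed it in at least 1. Of 15 lists with a median of at least 0.1 in size, 0 changed sign, though some shrank to under 0.1, while 9 lists of 28 changed sign under some setting. Signal over background is unknown, so dim probes could not be set apart.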
